A study of Caenorhabditis elegans with 8 samples.

Results

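A set of 10 nuclear genes of the mitochondrial respiratory chain was followed in this dataset. They were taken by name, as subunits or cofactor enzymes that are widely studied in *C. elegans*, and not by a cut on a measured value. The list was made with earlier results of these data known, so no test was run over it as a set. All 10 were found among the 42048 gene symbols of the count table, and all 10 passed the filter on low counts that left 14334 genes for testing. *nuo-1*, *nuo-6* and *gas-1* encode subunits of complex I, *mev-1* and *sdhb-1* subunits of complex II, *isp-1* and *cyc-1* subunits of complex III, and *atp-2* and *atp-3* subunits of ATP synthase, while *clk-1* encodes an enzyme of ubiquinone synthesis. RNA was sequenced from whole L4 larvae of wild-type N2 and of *nhr-49*(*nr2041*), a null mutant for a nuclear hormone receptor that controls lipid metabolism genes. Worms of each genotype were left untreated or were exposed for 4 hr to 7.5 mM tBOOH (tert-butyl hydroperoxide), an organic peroxide used to impose oxidative stress. Each of the 4 conditions has 2 libraries, numbered 1 and 3 in the labels, which the study describes as biological replicates. No source used here says what was shared between them, such as a culture or a day.

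The respiratory chain passes electrons from NADH (at complex I) and succinate (at complex II) through ubiquinone to complex III, cytochrome c and complex IV, which reduces oxygen. The proton gradient made on the way drives ATP synthase. Complexes I and III are also main sites at which electrons leak to oxygen, and worms mutant for *gas-1* or *mev-1* are hypersensitive to oxidants, whereas reduced function of *isp-1*, *nuo-6* or *clk-1*, or RNAi of *cyc-1* or *atp-3*, lengthens life.

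The libraries held from 2157766 to 5852727 counts, and both libraries of untreated *nhr-49* were the shallowest. Ribosomal RNA genes took 3.17% of the counts of untreated *nhr-49* replicate 1 and 0.357% to 1.12% of those of the other 7 libraries, and the part of this in the *nhr-49* results was not tested. Reads remained on the *nhr-49* gene in the mutant, at 21.2 and 36.1 CPM untreated and 32.7 and 27.7 CPM with tBOOH, below all N2 libraries (66.1 to 109.6 CPM), and *fmo-2*, which encodes a flavin-containing monooxygenase, was at 0 counts in all 4 mutant libraries. CPM are counts relative to the library total, scaled with TMM (trimmed mean of M-values) factors. Both replicate 3 libraries of *nhr-49* stood apart in yolk and embryo markers (*vit-2*, *vit-5*, *vit-6*, *cbd-1*, *egg-1*, *puf-5*), which summed to 1076 CPM untreated and 3737 CPM with tBOOH against 22202 to 83531 CPM in the other 6 libraries. They were also the lowest in summed germline markers (997 and 725 CPM against 1427 to 1800) and sperm markers (82.6 and 175 CPM against 287 to 453). The medians of the 10 genes and of the pathway lists in *nhr-49*, and the main single genes, are therefore also given without these libraries.

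Levels of different genes were compared as CPM per kb of annotated exon length (WBcel235). In untreated N2 the order was led by *atp-2*, at 2501 ± 36.8 CPM per kb (SD, n = 2), followed by *sdhb-1* at 714 ± 18.6 and *atp-3* at 691 ± 25.4, whose libraries overlapped. *nuo-1* followed at 384 ± 2.42 CPM per kb and *cyc-1* at 289 ± 14.6. A group of 4 genes came next and lay close together: *isp-1* at 143 ± 6.25, *gas-1* at 141 ± 1.2, *nuo-6* at 135 ± 3.51 and *mev-1* at 118.8 ± 1.34 CPM per kb, of which *isp-1* and *gas-1* overlapped. *clk-1* was far below at 15.2 ± 0.55 CPM per kb. The first 5 places and the last were held by the same genes in all 4 conditions. The places between were not: *gas-1* stood above *nuo-6* and *mev-1* in untreated N2 but last of these 4 by its mean in tBOOH-treated N2 (83.9 ± 14.8 CPM per kb), and *nuo-6* was last of these 4 in both *nhr-49* conditions (74.4 ± 15.4 untreated and 63.4 ± 2.29 with tBOOH). Neighbours that did not differ beyond their spread included *mev-1* and *gas-1* with tBOOH (85.3 ± 5.94 and 83.9 ± 14.8 CPM per kb in N2, 88.3 ± 3.29 and 85.8 ± 4.22 in *nhr-49*) and *isp-1* and *mev-1* in untreated *nhr-49* (136.9 ± 14.5 and 136.7 ± 26.3). Among the higher genes they included *atp-3* and *nuo-1* in untreated *nhr-49* (424 ± 45.7 and 403 ± 10.37 CPM per kb).

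**Figure D1:**
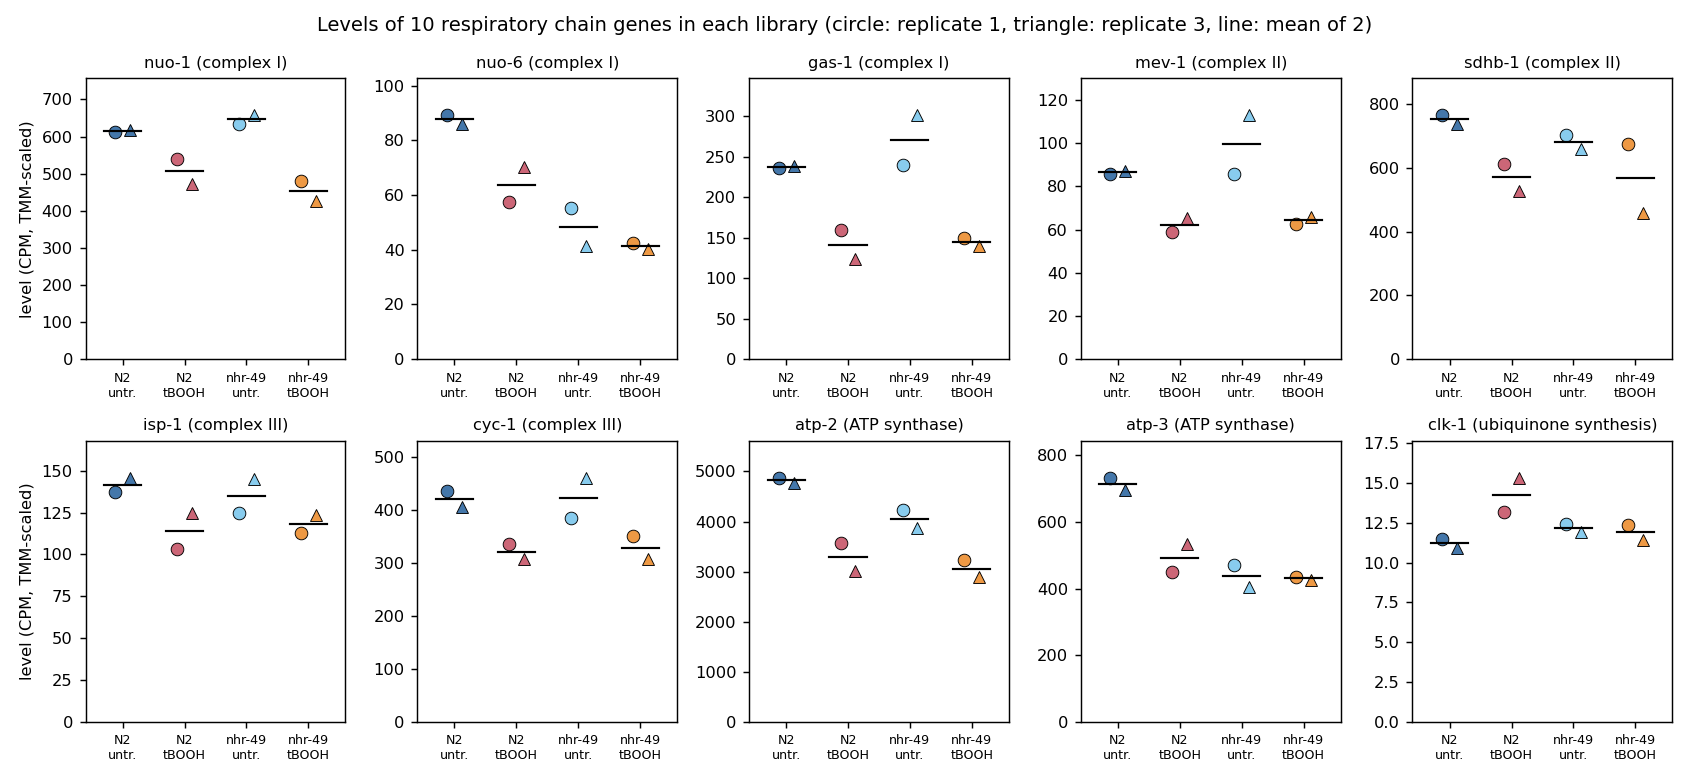
Level of each of the 10 genes (CPM on a linear axis from 0) in every library, by condition. Circles are replicate 1, triangles are replicate 3 and lines are the mean of the 2. In 9 of 10 panels both tBOOH-treated N2 libraries lie below both untreated N2 libraries, and *clk-1* is the exception.

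Complex I oxidises NADH. *nuo-1* (WBGene00003831, chromosome II), its NADH-binding flavoprotein subunit, was at 613 and 618 CPM in untreated N2, 540 and 473 in N2 with tBOOH, 634 and 658 in untreated *nhr-49* and 481 and 426 in *nhr-49* with tBOOH. The 4 treated libraries were thus the 4 lowest. *gas-1* (WBGene00001520, chromosome X), a core subunit near the ubiquinone site, was at 236 and 239 CPM in untreated N2 and 159 and 124 with tBOOH. In *nhr-49* it was at 240 and 302 CPM untreated and 150 and 140 with tBOOH, so that again all treated libraries were below all untreated ones, and its highest library was 2.43 times its lowest, the widest range of the 10. *nuo-6* (WBGene00012166, chromosome I), an accessory subunit of the membrane arm, was at 89.3 and 86.0 CPM in untreated N2, 57.4 and 70.1 with tBOOH, 55.4 and 41.3 in untreated *nhr-49* and 42.3 and 40.2 in *nhr-49* with tBOOH. Here the 4 mutant libraries were the 4 lowest.

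Complex II oxidises succinate and is also an enzyme of the citric acid cycle. *mev-1* (WBGene00003225, chromosome III), its cytochrome b subunit in the membrane, was at 85.8 and 87.2 CPM in untreated N2, 59.05 and 65.2 with tBOOH, 86.0 and 113 in untreated *nhr-49* and 62.6 and 66.0 with tBOOH. All treated libraries were below all untreated ones. *sdhb-1* (WBGene00006433, chromosome II), the iron-sulfur subunit, was at 766 and 738 CPM in untreated N2 and 612 and 528 with tBOOH, and at 703 and 660 CPM in untreated *nhr-49* and 676 and 458 with tBOOH. The N2 groups did not overlap and the *nhr-49* groups did.

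Complex III passes electrons from ubiquinol to cytochrome c. *isp-1* (WBGene00002162, chromosome IV), the Rieske iron-sulfur protein, was at 137 and 146 CPM in untreated N2 and 103 and 125 with tBOOH. Its *nhr-49* libraries were at 125 and 145 CPM untreated and 113 and 123 with tBOOH. The treated libraries were below the untreated ones in both genotypes, by little in *nhr-49*. *cyc-1* (WBGene00000869, chromosome I), cytochrome c1, was at 435 and 405 CPM in untreated N2, 335 and 307 with tBOOH, 384 and 460 in untreated *nhr-49* and 349 and 306 with tBOOH. Its treated libraries were the 4 lowest.

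ATP synthase makes ATP from the proton gradient. *atp-2* (WBGene00000229, chromosome III), the catalytic beta subunit, was at 4875 and 4775 CPM in untreated N2 and 3576 and 3018 with tBOOH, and at 4229 and 3877 CPM in untreated *nhr-49* and 3230 and 2887 with tBOOH. The 4 treated libraries were the 4 lowest. *atp-3* (WBGene00000230, chromosome I), a subunit of the stalk that holds the catalytic head, was at 733 and 695 CPM in untreated N2 and 448 and 534 with tBOOH. In *nhr-49* it was at 472 and 405 CPM untreated and 435 and 425 with tBOOH. For *atp-3* the 2 untreated N2 libraries stood above the other 6, and the *nhr-49* groups overlapped. As a result *atp-2* was 6.76 ± 0.15 times *atp-3* in untreated N2 and 9.27 ± 0.43 times in untreated *nhr-49* (SD, n = 2 each), and 6.81 ± 1.65 and 7.11 ± 0.44 times with tBOOH. *clk-1* (WBGene00000536, chromosome III), the hydroxylase of a late step in ubiquinone synthesis, was at 11.5 and 10.9 CPM in untreated N2 and 13.2 and 15.3 with tBOOH, and at 12.4 and 11.9 CPM in untreated *nhr-49* and 12.4 and 11.4 with tBOOH. These rest on 24 to 81 counts per library. Both treated N2 libraries were its highest.

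To ask how the respiratory chain genes stood after tBOOH in wild-type, treated and untreated N2 were compared. Of the 10 genes, 9 were at lower levels in both treated libraries than in either untreated library, and *clk-1* was higher in both. The largest difference was that of *gas-1*, at 60% of its untreated level, followed by *atp-2* and *atp-3* at 68% and 69% and *mev-1* at 72%. None of these passed the test across all genes. At an adjusted p under 0.05 (edgeR exact test, Benjamini-Hochberg) 0 of the 10 genes were called, against 5.34% of all genes tested (316 higher and 450 lower). The quasi-likelihood test of edgeR and DESeq2 also called 0 of 10, where they called 233 and 861 of all 14334 genes. At an unadjusted p under 0.05 the exact test had 1 of 10 (*gas-1*), beside 15.9% of all genes, and either of the other tests 3 of 10 (*gas-1*, *atp-2* and *atp-3*). Of all 14334 genes, 2418 had such a p in the quasi-likelihood test and 2178 in DESeq2. Groups that did not overlap in the lower direction, as for 9 of the 10, were found for 27.5% of all genes, and in the higher direction, as for *clk-1*, for 32.3%.

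The log2 fold changes are from edgeR, and the standard errors given beside them are those of DESeq2 for the same contrast. With tBOOH in N2, *gas-1* was at −0.75 (SE 0.31, adjusted p = 0.24 in the exact test), *atp-2* at −0.55 (SE 0.27, adjusted p = 0.52) and *atp-3* at −0.54 (SE 0.27, adjusted p = 0.49). *gas-1* alone was called when dispersions were estimated from the 4 N2 libraries (adjusted p = 0.033 in the exact test), a setting that called 2317 genes in all against 766. *mev-1* was at −0.48, *nuo-6* at −0.46, *sdhb-1* at −0.40, *cyc-1* at −0.39, *isp-1* at −0.31 and *nuo-1* at −0.28, with SE from 0.27 to 0.33, and *clk-1* was at 0.35 (SE 0.45). The median of the 10 was −0.43 beside 0.05 over all genes tested. With library totals alone as the scale the median over all genes moved to 0.23 and that of the 10 to −0.25, so that the gap between them was −0.48 under both, while the calls over all genes changed to 422 higher and 307 lower. Leaving out any single library, or either replicate number, kept 9 of the 10 below 0, with medians from −0.51 to −0.37.

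**Figure D2:**
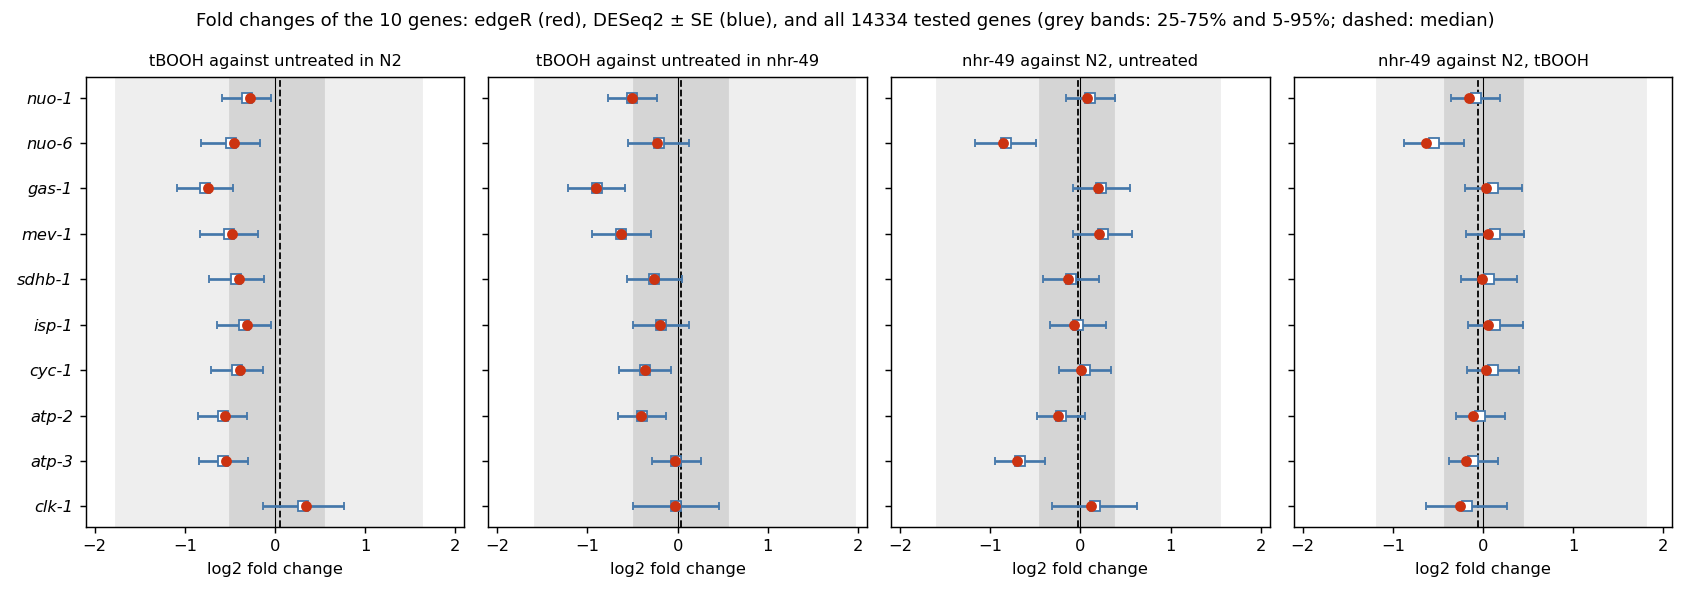
Log2 fold change of each of the 10 genes in the 4 comparisons, from edgeR (red) and from DESeq2 with its standard error (blue), over bands that hold the middle 50% and 90% of all 14334 genes tested (dashed line: their median). With tBOOH in N2 the points lie left of the median of 0.05 except *clk-1*, and between genotypes *nuo-6* and, without tBOOH, *atp-3* lie farthest left.

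The same comparison in *nhr-49* worms asks how these genes stood after tBOOH without the receptor. All 10 fold changes were below 0, and *gas-1* was again the largest difference, at 53% of its untreated level, followed by *mev-1* at 64% and *nuo-1* at 70%. With library totals alone as the scale, *atp-3* and *clk-1* turned to the other side of 0 and 8 of the 10 remained below it. The exact test called 0 of 10, beside 4.63% of all genes tested (390 higher and 274 lower, or 469 and 209 with library totals alone). The quasi-likelihood test and DESeq2 called 0 of 10 as well, where they called 218 and 720 of all 14334 genes. At an unadjusted p under 0.05 the exact test, the quasi-likelihood test and DESeq2 had 1, 3 and 1 of the 10. Of all genes, 14.6% had such a p in the exact test, 2222 of 14334 in the quasi-likelihood test and 1968 in DESeq2. Groups of 6 genes did not overlap, all in the lower direction, where 18.9% of all genes were found. These were *nuo-1*, *gas-1*, *mev-1*, *isp-1*, *cyc-1* and *atp-2*.

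In *nhr-49*, *gas-1* had a log2 fold change of −0.90 (SE 0.32, adjusted p = 0.13 in the exact test), *mev-1* of −0.63 (SE 0.33, adjusted p = 0.39) and *nuo-1* of −0.51 (SE 0.27, adjusted p = 0.57). *atp-2* was at −0.41, *cyc-1* at −0.37, *sdhb-1* at −0.26, *nuo-6* at −0.23 and *isp-1* at −0.19, while *atp-3* and *clk-1* were at −0.03. The median was −0.32, against 0.04 over all genes. Without the replicate 3 libraries the median was −0.27 with 10 of 10 below 0, and with those libraries alone −0.43 with 8 of 10 below 0, in both cases as fold changes without a test. From the replicate 1 libraries alone, *gas-1* was at −0.68, *mev-1* at −0.46 and *nuo-1* at −0.40.

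Whether the response to tBOOH differed between the genotypes was tested as an interaction. The quasi-likelihood test called 0 of the 10 genes and 0 of all 14334 genes tested (0%), among which 523 (3.65%) had an unadjusted p under 0.05, and DESeq2 called 16, none of them among the 10. None of the 10 had an unadjusted p under 0.05. The largest interaction was that of *atp-3*, at 0.51 on the log2 scale (SE 0.39), followed by *clk-1* at −0.38 (SE 0.65) and *nuo-6* at 0.23 (SE 0.47). The standard errors of the 10 interactions, from 0.38 to 0.65, were about as large as the tBOOH differences themselves, so a difference in response of that size was not detectable here.

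Between untreated genotypes 2 genes stood out, *nuo-6* at 55% and *atp-3* at 61% of the N2 level in *nhr-49*, with no overlap between libraries. The other 8 lay between 84% and 115%. The exact test called 0 of 10, beside 0.998% of all genes, with 2 at an unadjusted p under 0.05 beside 7.56% of all genes. The quasi-likelihood test and DESeq2 called 0 of 10, where they called 20 and 140 of all 14334 genes. *nuo-6* had a log2 fold change of −0.86 (SE 0.34, unadjusted p = 0.015 and adjusted p = 0.40) and *atp-3* of −0.70 (SE 0.27, unadjusted p = 0.047 and adjusted p = 0.65) in this exact test. Both were also lower in *nhr-49* without each library in turn, with *nuo-6* from −1.09 to −0.66 and *atp-3* from −0.82 to −0.60 over all settings tried. Groups did not overlap for 4 genes in the lower direction (20.7% of all genes), which were *nuo-6*, *atp-3*, *atp-2* and *sdhb-1*, and for 3 in the higher direction (18.3% of all genes), which were *nuo-1*, *gas-1* and *clk-1*. The median of the 10 was −0.03, as over all genes, and was −0.13 from the replicate 1 libraries alone and 0.12 from the replicate 3 libraries alone.

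After tBOOH the genotypes differed less in *atp-3*, at −0.19 (SE 0.27), but *nuo-6* was still at 65% of the N2 level in *nhr-49*, a log2 fold change of −0.63 (SE 0.33, adjusted p = 0.59 in the exact test across all genes). Over 13 alternative settings *nuo-6* ranged from −0.77 to −0.35 and *atp-3* from −0.31 to 0.07. In the treated replicate 1 libraries alone *nuo-6* was at 57.4 CPM in N2 and 42.3 CPM in *nhr-49*. The exact test called 0 of 10 and had 0 at an unadjusted p under 0.05, where 2.30% of all genes were called and 9.72% had such a p. The quasi-likelihood test and DESeq2 called 0, with 1 (*nuo-6*) and 0 at an unadjusted p under 0.05. Of all 14334 genes these tests called 51 and 358, and 1406 and 1306 had an unadjusted p under 0.05. Groups did not overlap for *nuo-6*, *atp-3* and *clk-1*, all lower in the mutant, where in either direction the groups of 42.4% of all genes did not overlap. The median was −0.06 against −0.05 over all genes, and moved to 0.05 without the tBOOH-treated *nhr-49* replicate 3 library, with 3 rather than 6 genes below 0. Each tBOOH comparison shares libraries with each genotype comparison, so the values of these are not independent. The 2 tBOOH comparisons share no library, nor do the 2 genotype comparisons.

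Summed over the 10 genes, the level was 7891 ± 128 CPM in untreated N2 and 5582 ± 455 CPM with tBOOH, and 6807 ± 190 CPM in untreated *nhr-49* and 5217 ± 473 CPM with tBOOH (SD, n = 2 each). *atp-2* supplied 58.6% to 61.1% of the 10 genes' counts by condition mean, so the sum mostly follows that gene. As a share of all counts, which needs no scaling factor, the 10 genes took 0.737%, 0.587%, 0.651% and 0.554% in the same order.

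To place the 10 genes in their pathway, 83 nuclear genes for respiratory chain subunits, cytochrome c and ubiquinone synthesis, the 10 included, were examined, of which 82 were tested (*R05D3.6* had no counts). Of the other 72 genes, 60 had a fold change below 0 with tBOOH in N2 and 6 fell, which is 6 of 72 called lower against 3.14% of all genes. *mai-2*, an inhibitor of ATP synthase, was at 89.5 and 83.9 CPM untreated and 27.7 and 34.7 CPM with tBOOH, and fell by 1.47 on the log2 scale (adjusted p = 0.0026 in the exact test). *cyc-2.1*, cytochrome c, went from 70.2 and 61.9 CPM to 16.6 and 24.8 CPM and fell by 1.67 (adjusted p = 0.0051). *sdha-1*, the flavoprotein subunit of complex II that binds the *sdhb-1* product, went from 351 and 358 CPM to 183 and 143 CPM and fell by 1.12 (adjusted p = 0.032). *F45H10.3* (*ndua-7* in RefSeq), a complex I gene, fell by 1.08 (adjusted p = 0.037 in the exact test). *Y71H2AM.4* (*nduc-2* in RefSeq), also of complex I, fell by 1.04 (adjusted p = 0.043 in the exact test), and *T02H6.11*, listed here with complex III, by 1.28 (adjusted p = 0.0074). *Y71H2AM.4* overlaps *cox-6B*, and reads in the shared part cannot be assigned with certainty. In this comparison the quasi-likelihood test called 233 of all 14334 genes, and the exact test with dispersions from the 4 N2 libraries called 2317. All 6 calls were lost when any 1 of the 4 N2 libraries was left out, the quasi-likelihood test called 1 (*mai-2*), and dispersions from the 4 N2 libraries gave 23 calls.

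The complexes were alike in direction with tBOOH in N2, apart from ubiquinone synthesis. Median log2 fold changes were −0.40 for 34 complex I genes (29 below 0, 2 called lower), −0.48 for 5 complex II genes (4 below 0, 1 called lower), −0.58 for 11 genes of complex III and cytochrome c (10 below 0, 2 called lower), −0.67 for 7 complex IV genes (7 below 0, 0 called) and −0.59 for 17 ATP synthase genes (15 below 0, 1 called lower), beside 0.05 over all genes. For 8 genes of ubiquinone synthesis, which include *clk-1*, the median was 0.12 with 4 below 0 and 0 called. The largest value among well-counted complex IV genes was that of *cco-2* (*cox-5A* in WBcel235), at −1.01 (adjusted p = 0.084 in the exact test), and *hpo-18* of ATP synthase was at −1.76 (adjusted p = 0.10). In the ubiquinone list *coq-2*, the prenyltransferase that joins the tail to the ring, had the largest value, at 0.76 (adjusted p = 0.51 in the exact test).

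In *nhr-49* the list medians stood in another order. The 72 genes outside the 10 had a median of −0.38 with 58 below 0. The exact test called 0 of them, beside 4.63% of all genes. DESeq2 called 2 of the 72, where it called 720 of all 14334 genes, and the quasi-likelihood test called 0, where it called 218. Medians were −0.40 for complex I, −0.32 for complex II, −0.37 for complex III and cytochrome c, −0.07 for complex IV, −0.40 for ATP synthase and −0.60 for ubiquinone synthesis, in which *coq-1*, an enzyme that makes the side chain, was at −1.05 (adjusted p = 0.10 in the exact test). *T02H6.11* was again among the lowest, at −1.05 (adjusted p = 0.0505 in the exact test), just outside the threshold. Without the replicate 3 libraries the medians were −0.40 for complex I, −0.32 for complex II, −0.76 for complex III and cytochrome c, −0.44 for complex IV, −0.43 for ATP synthase and −0.54 for ubiquinone synthesis. The value near 0 for complex IV was thus not seen in the replicate 1 libraries, in which 7 of its 7 genes were below 0, and there *coq-1* was at −0.68 and *T02H6.11* at −1.22. The median interaction was 0.60 on the log2 scale for complex IV and −0.43 for ubiquinone synthesis, with 0 genes called in either, and 0.37 and −0.65 in the replicate 1 libraries alone. Between the genotypes 0 of the 72 were called without or with tBOOH, beside 0.998% and 2.30% of all genes. *D2030.4* (*ndub-7* in RefSeq), of complex I, had the largest value among untreated worms, at −1.64 (adjusted p = 0.16 in the exact test), with 46.9 and 31.8 CPM in N2 and 15.02 and 10.42 CPM in *nhr-49*, and all 7 complex IV genes were below 0 in that comparison (median −0.46). In the replicate 1 libraries alone *D2030.4* was at −1.62 and 6 of the 7 complex IV genes were below 0 (median −0.56).

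**Figure D3:**
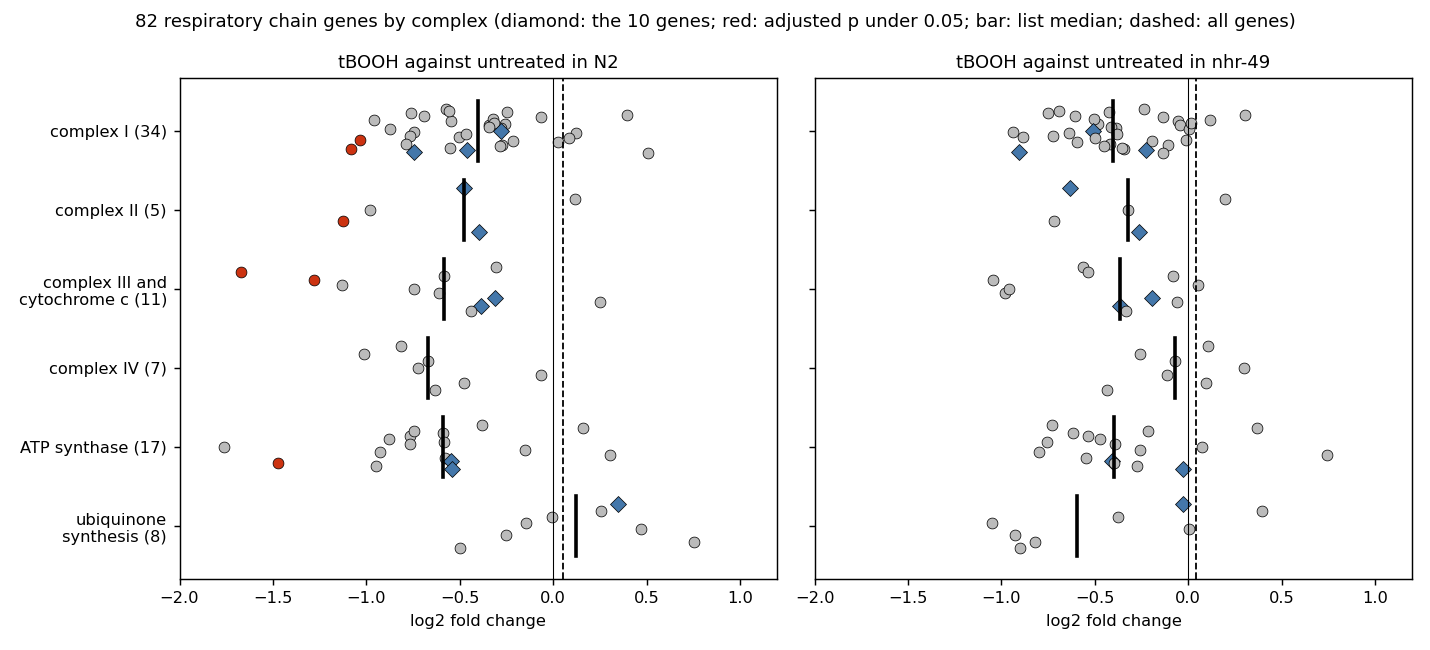
Log2 fold change with tBOOH in N2 (left) and in *nhr-49* (right) of 82 respiratory chain genes by complex, with the number of genes in parentheses. Diamonds are the 10 genes, red points passed the test, bars are list medians and the dashed line is the median of all genes tested. In N2 the medians of 5 lists lie from −0.67 to −0.40 and that of ubiquinone synthesis at 0.12.

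Some subunits have a closely related second gene, and several such pairs differed in how they stood with tBOOH. These pairs were chosen with their values known, so all are given as descriptions without a test. *nduf-2.2*, which encodes the same complex I subunit as *gas-1*, was at 47.6 and 48.5 CPM in untreated N2 and 72.1 and 54.2 with tBOOH, and at 42.5 and 29.8 CPM in untreated *nhr-49* and 57.0 and 31.8 with tBOOH. Both treated N2 libraries were above both untreated ones, against the direction of *gas-1*. Within a library, where scaling plays no part, *gas-1* was 4.95 ± 0.02 times *nduf-2.2* in untreated N2 and 2.25 ± 0.06 times with tBOOH, and 7.90 ± 3.17 and 3.51 ± 1.25 times in *nhr-49* (SD, n = 2 each), where the replicate 1 libraries gave 5.66 and 2.63 times.

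For complex II, *sdha-1* was 1.92 ± 0.21 times *sdha-2* in untreated N2 and 0.81 ± 0.01 times with tBOOH. *asb-2* was 3.47 ± 0.52 times *asb-1*, another ATP synthase subunit gene, and 1.81 ± 0.05 times with tBOOH. *mai-2* was 9.39 ± 0.18 times *mai-1* and 2.803 ± 0.83 times with tBOOH, and *ucr-2.1* was 6.19 ± 1.02 times *ucr-2.3*, both complex III core subunits, and 3.44 ± 0.07 times with tBOOH (N2, SD, n = 2 each). In each of the 5 pairs the 2 groups of N2 libraries did not overlap. Since the pairs were chosen with these values known, that count says nothing about related genes in general. In *nhr-49* the untreated and treated ratios did not overlap either for 4 of the pairs, while *ucr-2.1* over *ucr-2.3* overlapped, at 5.93 ± 1.29 and 6.1 ± 2.25. *cyc-2.1* and *cyc-2.2* did not show such a split in N2, at −1.67 and −1.13, nor did *ucr-2.2*, at −0.75, stand with *ucr-2.3*, at 0.25. Reads that match both genes of a pair may have been split or dropped in the authors' counting, which makes the levels of related genes less certain. Germline markers summed to 1741 and 1622 CPM in untreated N2 and 1800 and 1427 CPM with tBOOH, and to 1582 and 997 CPM in untreated *nhr-49* and 1777 and 725 CPM with tBOOH, and their part in these ratios was not tested.

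**Figure D4:**
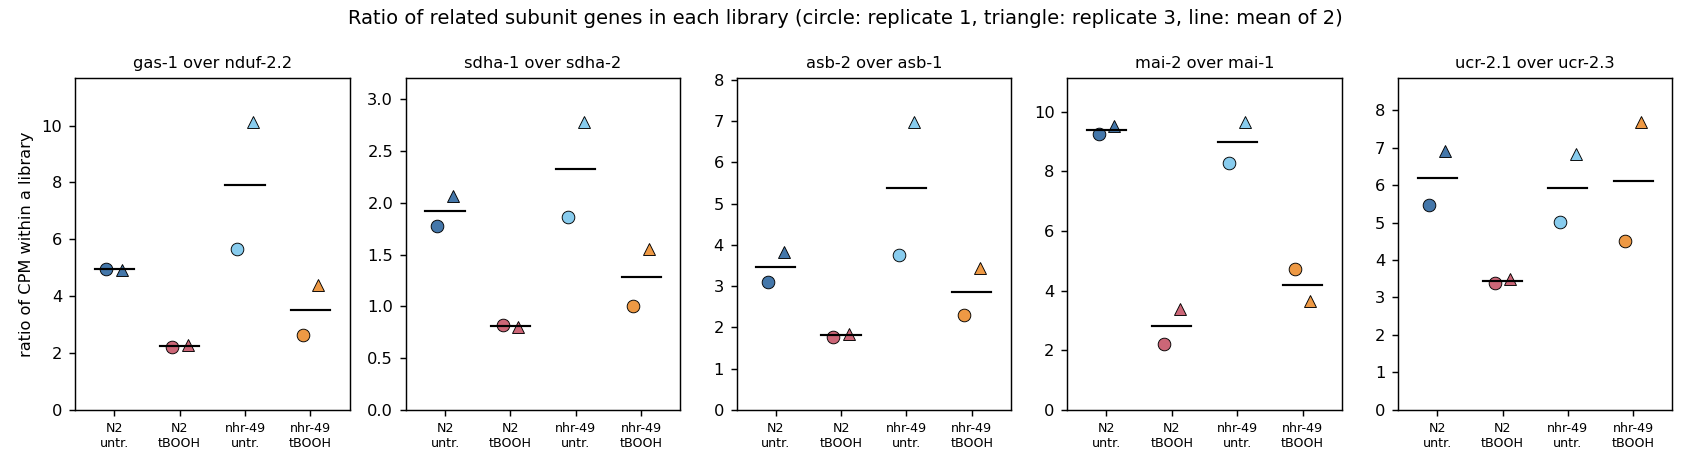
Ratio of the CPM of related subunit genes within each library (linear axis from 0), by condition; circles are replicate 1, triangles replicate 3 and lines the mean of 2. In N2 the ratio of *gas-1* to *nduf-2.2* is 4.95 untreated and 2.25 with tBOOH, and the other 4 pairs are also lower in both treated N2 libraries. The pairs were chosen with these values known.

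RNA came from whole worms, so fewer cells of a type and less RNA per cell cannot be told apart. Body wall muscle is rich in mitochondria. All 8 of its markers, *unc-54* and *myo-3* among them, had counts in every library, and they summed to 26678 and 26171 CPM in untreated N2 and 17917 and 17642 CPM with tBOOH, and to 24797 and 28109 CPM in untreated *nhr-49* and 20459 and 16449 CPM with tBOOH. Relative to the mean of untreated N2, the muscle sum was thus at 0.68 and 0.67 in treated N2, where the sum of the 10 genes was at 0.75 and 0.67. The median log2 fold change of the muscle markers was −0.64 in N2 and −0.49 in *nhr-49*, with 0 of 8 called in either. For this and the other marker lists, the share of all genes called was 5.34% in N2 and 4.63% in *nhr-49*. The 8 intestine markers had medians of −0.71 (1 called higher and 1 lower) and −0.75 (3 called lower), and their sum ranged from 8928 to 9812 CPM in untreated and 4494 to 5935 CPM in treated N2. The 6 hypodermis markers, all cuticle collagen genes, had a median of −3.28 in N2 with 4 called lower, and −0.58 in *nhr-49* with 0 called. Their sum in untreated *nhr-49* was 3385 CPM in replicate 1 and 1408 CPM in replicate 3. From the replicate 1 libraries alone their *nhr-49* median was −1.74, with 5 of 6 below 0. Neuron markers (6 genes) had medians of −0.05 and 0.09, germline markers (8 genes) of 0.19 and 0.06 and sperm markers (8 genes) of −0.03 and 0.01, with 0 called. The 6 yolk and embryo markers lay above 0 in both genotypes (medians 0.75 and 0.35, 0 called), and their sum was 47362 and 22202 CPM in untreated N2 and 83531 and 40580 CPM with tBOOH, groups that overlapped. The medians of the muscle, intestine and hypodermis markers thus had the sign of the respiratory chain medians in both genotypes. From the replicate 1 libraries alone, the other *nhr-49* medians were −0.36 for muscle, −0.58 for intestine and −0.42 for sperm. Those for neuron, germline and yolk and embryo markers were 0.12, 0.25 and 0.30. The fall in N2 was largest in the hypodermis list, and the 2 calls among intestine markers in N2 went both ways. The part of any of these lists in the result was not tested.

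**Figure D5:**
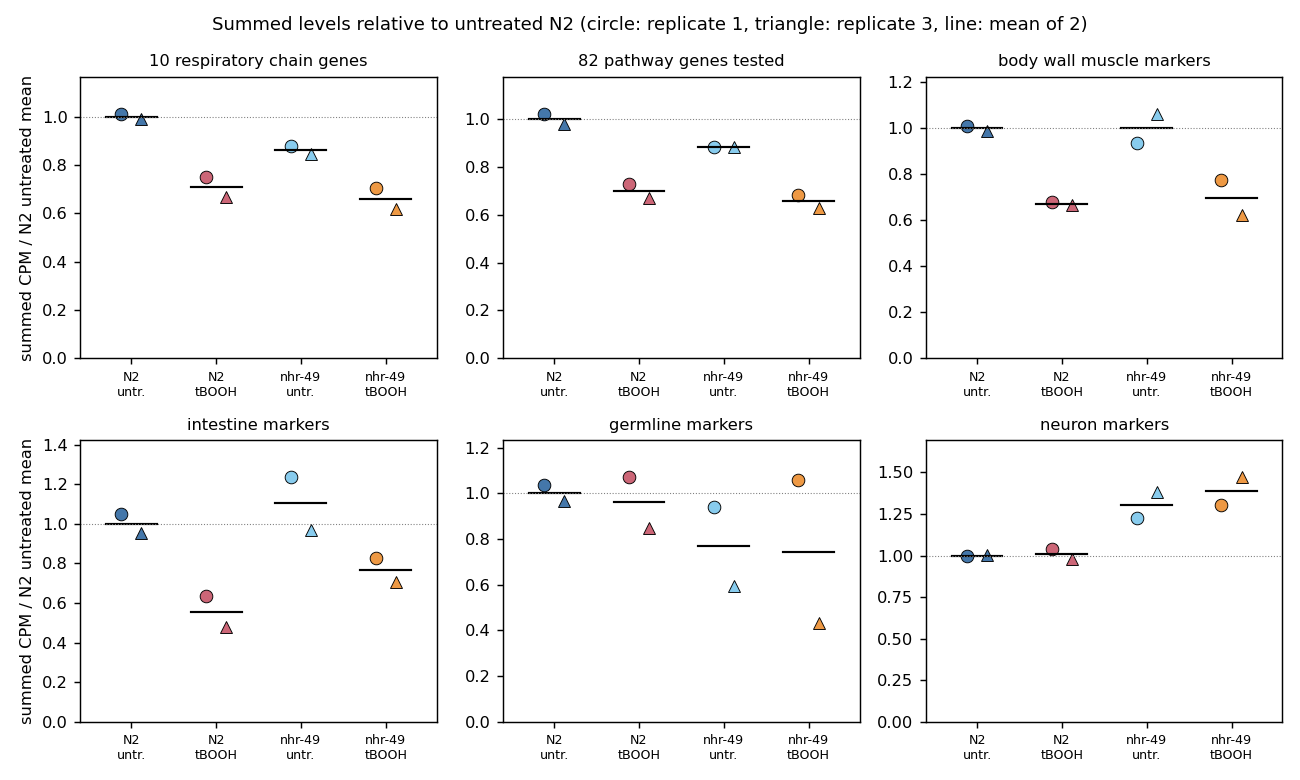
Summed CPM of the 10 genes, of the 82 pathway genes tested and of 4 marker lists in each library, divided by the mean of the 2 untreated N2 libraries (linear axis from 0); circles are replicate 1, triangles replicate 3 and lines the mean of 2. The 10 genes are at 0.75 and 0.67 in treated N2 and muscle markers at 0.68 and 0.67, while neuron markers stay near 1 in N2. Hypodermis, sperm and yolk and embryo markers are not drawn.

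The profiles of the 10 genes over the libraries were compared with their mean. The log2 CPM of each was centred on its own mean over the 8 libraries, and the distance to the mean profile of the 10 was taken as a root mean square difference. The mean profile includes the gene itself, which brings each of the 10 closer to it than a gene from outside. *nuo-1* was closest (0.09), with *atp-2* and *cyc-1* at 0.10, *sdhb-1* at 0.13 and *isp-1* at 0.14. *mev-1* was at 0.19, *atp-3* at 0.22, *gas-1* and *clk-1* at 0.29 and *nuo-6* at 0.34, farther than 29.8% of all candidate genes. Among 5929 candidate genes of at least 20 CPM on average outside the lists, the 5 closest to the mean profile over the 8 libraries were *cpt-2* (0.077), *F01G4.6* (0.080), *dpf-4* (0.082), *eef-1B.2* (0.083) and *gfm-1* (0.083). Between replicates the 10 genes were close, with a median absolute log2 difference of 0.05 in untreated N2, 0.23 in treated N2, 0.22 in untreated *nhr-49* and 0.12 in treated *nhr-49*, beside 0.19, 0.24, 0.42 and 0.48 over 6041 genes of at least 20 CPM on average. Those genes were not matched to the 10 in level, so closeness is not marked as a trait of the 10. In untreated N2 *clk-1*, itself below 20 CPM, stood above 47.6% of all genes tested, *mev-1* above 84.5% and *atp-2* above 99.9%.

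Of the 10 genes, 4 overlap another annotated gene in WBcel235, and reads in a shared part may not be assigned with certainty, since the use of strand in counting is not given in the sources used here. *C09H10.4*, which overlaps *nuo-1*, had at most 1 count in a library, and *cutl-6*, which overlaps *nuo-6*, had at most 16. *C54G4.7*, which overlaps *cyc-1*, was at 15.6 to 24.1 CPM against at least 306 CPM for *cyc-1*. *K09A9.6*, which overlaps *gas-1*, was at 20.6 to 74.0 CPM against at least 124 CPM for *gas-1*, and had log2 fold changes with tBOOH of −0.43 in N2 and −1.2 in *nhr-49* (not called in either), in the same direction as *gas-1*, a relation whose part in the values of *gas-1* was not tested.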

How the data were processed

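Per the labels' processing notes, the authors aligned RNA-seq reads with STAR to ce10 and deposited a table of raw counts per gene. The counter, the annotation and the use of strand are not given in the sources used here. A deposited table of CPM was not used. All columns were mapped to libraries by their labels (0 were not). The analysis started from these counts (edgeR 4.0.16 under R 4.3.3). Genes over 1 TMM-scaled CPM in at least 2 of 8 libraries were kept (14334 of 42048), and conditions were compared with the exact test using tagwise dispersions from all 8 libraries (common biological coefficient of variation 36.2%), with Benjamini-Hochberg adjustment over all genes and a threshold of 0.05. The interaction was tested by quasi-likelihood. Standard errors are from DESeq2 1.42.0. Totals were 2157766 to 5852727 counts, and the number of libraries, 2 per group, limits precision.

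The 10 genes, the pathway and marker lists and the tests were chosen with earlier results of these data known. Dispersions were first estimated with a design matrix, and its calls were seen, before the estimate without one was adopted to match earlier processing of the series. Both are reported in the closing section. Named were the 10 genes, other pathway genes that were called, genes with the largest change in a list and comparison (at least 20 counts in every library compared), *nduf-2.2*, the 5 genes of closest profile, and *nhr-49* and *fmo-2*. Other related gene pairs were added after their values were seen. Alternatives were DESeq2, quasi-likelihood, RLE scaling, library totals alone, other filters, a replicate block, dispersions estimated from only the compared libraries, and each library or replicate number left out. Subunits encoded by mitochondrial DNA were not analysed here. Gene IDs, chromosomes and exon lengths are from WBcel235, a build other than that of the counts, so no coordinates are given.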

Additional observations from a re-analysis of the deposited data

Results flagged for a closer look

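Among the 10 genes and the pathway genes chosen by the naming rule, 5 lay in opposite directions in 2 matched comparisons without overlap between groups. Some pathway genes outside that rule did so too, such as *nuo-4* (0.24 untreated and −0.38 with tBOOH between genotypes) and *atp-4* (−0.30 and 0.24). Lack of overlap was common between genotypes, for 42.4% of all genes with tBOOH, and untreated for 18.3% higher and 20.7% lower. How many of all genes lay in opposite directions was not counted, so the 5 are not marked out from other genes. The interaction values below are log2 differences between the 2 effects (edgeR quasi-likelihood test across all genes). Unadjusted p ranged from 0.015 to 0.45 in that test, and none passed it after adjustment. Between genotypes, *clk-1* was at 0.12 untreated and −0.26 with tBOOH, an interaction of −0.38. *mai-2* was at −0.45 untreated and 0.62 with tBOOH, an interaction of 1.07. *F45H10.3* was at −0.56 and 0.18, an interaction of 0.74, and *Y71H2AM.4* at −0.83 and 0.19, an interaction of 1.02. *coq-2* was at 0.91 untreated and −0.67 with tBOOH between genotypes, and with tBOOH at 0.76 in N2 and −0.82 in *nhr-49*, an interaction of −1.57. These *coq-2* values rest on only 18 to 67 counts per library. Its 18 counts, in untreated *nhr-49* replicate 1, were below the count minimum of the naming rule. From the replicate 1 libraries alone *coq-2* was at 0.89 untreated and −0.44 with tBOOH between genotypes. Its interaction there was −1.33, given without a test.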

How the results depend on the processing

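Signs under the alternatives were checked for the 10 genes and the 6 other pathway genes called in N2. No called value of these changed sign. Settings that left out a replicate number were not part of that check. With tBOOH in N2 the 10 genes had a median (log2) of −0.46 with DESeq2 and with RLE scaling, −0.25 with library totals alone and −0.51 to −0.37 with a library or replicate number left out. In *nhr-49* it was −0.18 with library totals alone and −0.43 to −0.27 with libraries left out. Between genotypes with tBOOH it was 0.0185 with DESeq2, 0.0175 with RLE scaling and −0.0645 to 0.0543 with libraries left out (3 to 6 genes below 0), and untreated −0.13 to 0.12. The median interaction ranged from −0.0831 to 0.164 with 2 to 6 of the 10 below 0. Of the 10 genes, 1 (*gas-1*) was called in N2 with dispersions from the 4 libraries compared, and 0 in every other setting run.

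Other pathway genes called lower with tBOOH in N2 were 1 by quasi-likelihood, 3 with library totals alone, 3 without a filter, 23 with dispersions from the 4 libraries, and 0 to 0 with any 1 library left out. In *nhr-49* they were 2 with DESeq2, 1 with a filter of 10 counts, 1 (*T02H6.11*) with design-matrix dispersions and 0 to 3 with libraries left out, and between genotypes 0 to 3 untreated and 0 to 1 with tBOOH. With libraries left out, 27 to 45 of the 72 were below 0 between genotypes with tBOOH and 18 to 33 in the interaction. The cause of these shifts was not tested. Among all genes tested, calls with tBOOH in N2 were 729 of 14274 with library totals alone and 637 of 19796 without a filter. In *nhr-49* they were 720 of 14334 with DESeq2, 714 of 12666 with a filter of 10 counts and 722 of 14334 with design-matrix dispersions.

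Over all genes, calls in the order tBOOH in N2, tBOOH in *nhr-49*, genotype untreated and genotype with tBOOH were 766, 664, 143 and 329, against 233, 218, 20 and 51 by quasi-likelihood. Dispersions from the 4 libraries compared gave 2317 in the first and 258 in the second. With a library left out they ranged from 153 to 337, 338 to 1118, 32 to 668 and 79 to 794. For the interaction 113 were called without a filter and 16 by DESeq2. Whether replicate numbers pair the libraries is not known, since no label says so and 2 pairs per comparison (deviation correlations of 0.045 to 0.276 across genes) cannot settle it. With the replicate block in the quasi-likelihood test, 624, 465, 57 and 162 genes were called, 0 of the 10 and 4 of the other pathway genes in N2.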
